A study of Mus musculus with 6 samples.

Results

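The genes examined here are the steroidogenic cytochromes P450 of mitochondria and of the endoplasmic reticulum together with the proteins that hand them electrons. They were chosen by gene symbol, and all 8 symbols (Cyp11a1, Fdx1, Fdxr, Cyp11b1, Cyp17a1, Por, Cyb5a and Cyb5b) were found among the 14774 genes of the deposited table. RNA sequencing was available for 3 libraries of MA-10 cells and 3 libraries of STARKO1 cells. MA-10 is a mouse tumor Leydig cell line, labelled wild type, and STARKO1 is a STAR knockout made from it. STARKO1 was grown from a single sorted cell after CRISPR/Cas9 targeting of Star, so that it is 1 clone, and the labels give both cell lines as untreated. A difference between them is therefore a difference between this clone and the MA-10 culture it was compared with, and the effect of the Star mutation and of clonal selection cannot be told apart. Nothing in the labels says whether the 3 libraries of a cell line came from separate cultures, so p values measure the spread between libraries, which may be technical.

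Cholesterol becomes a steroid hormone only after its side chain has been cut off inside the mitochondrion by CYP11A1 (P450scc). This enzyme cannot take electrons from NADPH directly. They pass first to the flavoprotein ferredoxin reductase (FDXR) and then to the small iron-sulfur protein ferredoxin (FDX1, adrenodoxin), which shuttles to the P450. The same chain serves CYP11B1, the enzyme that makes corticosterone and cortisol in the adrenal cortex. In the endoplasmic reticulum a single flavoprotein, cytochrome P450 reductase (POR), feeds all P450s, among them CYP17A1, which turns progestogens into androgens. Cytochrome b5 of the endoplasmic reticulum (CYB5A) promotes the second, side-chain splitting reaction of CYP17A1, and CYB5B is the form anchored in the outer mitochondrial membrane. MA-10 cells are known for making progesterone rather than testosterone. The comparison asks whether the transcripts of this machinery, which lies downstream of the cholesterol transfer that STAR serves, differ between cells with and without STAR.

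The total count was between 14114349 and 19530054 per library. Spread was wider within MA-10 than within STARKO1 cells, and MA-10 replicate 1 resembled the STARKO1 libraries. Across 8538 well expressed genes, Pearson's r of log2 CPM (counts relative to the TMM-scaled library size) was 0.802 to 0.974 among MA-10 libraries, 0.995 to 0.996 among STARKO1 libraries and 0.949 to 0.955 between MA-10 replicate 1 and the STARKO1 libraries. The 7SL RNA took 1.81% of the counts in MA-10 replicate 1, 14.4% and 6.63% in MA-10 replicates 2 and 3, and 1.82% to 2.37% in STARKO1 cells (95% Wilson interval of the highest value 14.3963% to 14.429%, counting error only). Star, the targeted gene, had 1064, 1261 and 697 counts in the MA-10 libraries and 48, 46 and 36 in the STARKO1 libraries. Of the Leydig cell markers, 9 of 9 were detected in every library. Markers of other cell types mostly had no row. Sertoli cell markers had one for 2 of 8, macrophage markers for 2 of 6, germ cell markers for 1 of 5, fibroblast markers for 1 of 6 and endothelial markers for 2 of 4. The Sertoli markers, Gata1 and Rhox5, summed to between 208 and 588 CPM of the unscaled library in MA-10 cells and to between 653 and 686 in STARKO1 cells. Neither gene overlapped between the cell lines, and 42.5% of all genes tested did not either. The endothelial markers summed to between 21.3 and 40.1 such CPM in MA-10 cells and to between 141 and 146 in STARKO1 cells, nearly all of it Cdh5. The fibroblast list came down to Pdgfra, with 1.81 to 6.81 such CPM in MA-10 and 0 to 0.139 CPM in STARKO1 cells. The part of these differences in the results below was not tested.

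None of the 8 genes passed the threshold for differential expression between STARKO1 and MA-10 cells. The threshold was a Benjamini-Hochberg adjusted p under 0.05 over all genes in the quasi-likelihood test of edgeR, which 9.04% of the 11939 genes tested passed, 4.3% higher and 4.74% lower in STARKO1 cells. The lowest adjusted p of the 8 was 0.0516. At an unadjusted p under 0.05 there were 5 of the 8, against 37.6% of all genes, with 2 higher (15.0% of all genes) and 3 lower (22.7%). DESeq2 called 5, against 28.5% of all genes. In 6 of the 8 the 3 libraries of one cell line all lay above the 3 of the other, against 42.5% of all genes. Of these, 2 (Fdxr and Cyp17a1) were higher in STARKO1 cells, against 21.5% of all genes, and 4 (Cyp11a1, Cyp11b1, Por and Cyb5a) were lower, against 21.0%. The median log2 fold change was -0.24 over the 8 genes and -0.05 over all genes tested. In bulk RNA, fewer cells expressing a gene and less RNA per cell cannot be told apart. Scaling by library size alone raised the log2 fold changes of all genes by a median of 0.43. It gave -0.41 for Cyp11a1, 1.14 for Fdxr, -1.47 for Cyp11b1, 1.83 for Cyp17a1, -0.99 for Cyb5a and 0.55 for Cyb5b, all with the same sign as below, while Fdx1 and Por changed sign.

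**Figure D1:**
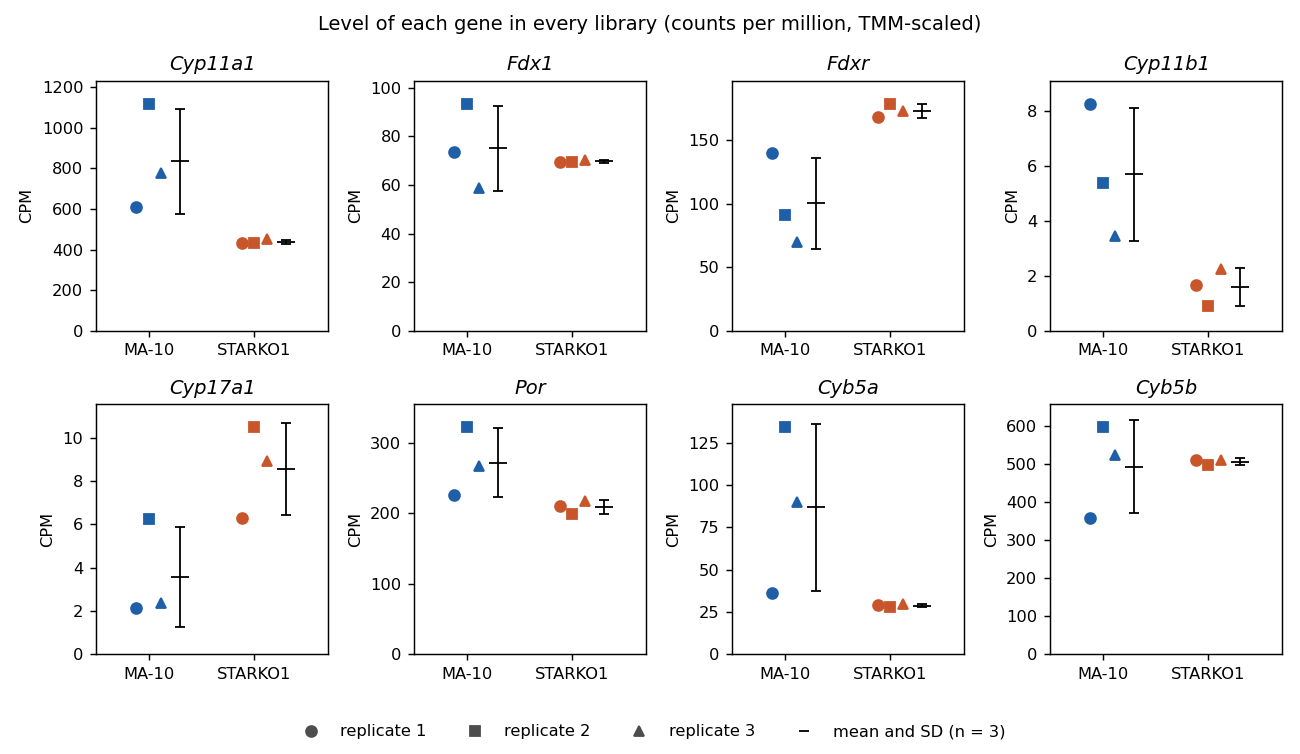
Level of each of the 8 genes in every library. The vertical axis of each panel is CPM after TMM scaling and starts at 0, circles, squares and triangles are replicates 1, 2 and 3, and the black mark and bar beside each group are the mean and SD of its 3 libraries. STARKO1 libraries lie close together except for Cyp11b1 and Cyp17a1, while for Cyp11a1, Fdxr, Por and Cyb5a the circle of MA-10 replicate 1 lies between the other MA-10 libraries and STARKO1.

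MA-10 replicate 1 lay between the other MA-10 libraries and the STARKO1 libraries for 4 of the 8 genes, against 30.5% of all genes tested. Without that library, 6 of the 8 genes passed the threshold, but so did 65.7% of all genes. Without MA-10 replicate 2, Cyp17a1 alone passed it, with an edgeR adjusted p of 0.0339. Values with all 6 libraries are therefore given below for every gene, and the values without MA-10 replicate 1 are given where they alter the call.

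The side-chain cleavage enzyme itself, Cyp11a1 (chromosome 9 of GRCm38, 58006411 to 58027024, plus strand), was among the most abundant of these transcripts. It was at 610, 1118 and 777 CPM in the MA-10 libraries (replicates 1, 2 and 3, the order used throughout) and at 432, 434 and 450 CPM in the STARKO1 libraries. The lowest MA-10 library was above the highest STARKO1 library, and the MA-10 libraries spread over a 1.83-fold range against 1.04-fold in STARKO1 cells. The means were 835 ± 259 CPM and 439 ± 9.95 CPM (SD, n = 3 each). On the log2 scale the difference was -0.93 (SE 0.268, edgeR adjusted p = 0.0670), which missed the threshold. Without MA-10 replicate 1 it was -1.02, with an adjusted p of 5.97e-04. Its exons share 145 bases on the same strand with the noncoding gene Gm17322.

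Ferredoxin, the direct electron donor, had nearly the same mean in both cell lines. Fdx1 (chromosome 9, 51943306 to 51963557, minus strand) had 73.5, 93.4 and 58.6 CPM in the MA-10 libraries and 69.4, 69.4 and 70.4 CPM in the STARKO1 libraries. The STARKO1 libraries all fell inside the MA-10 range. The means were 75.1 ± 17.5 CPM and 69.8 ± 0.556 CPM (SD, n = 3 each), a log2 difference of -0.11 (SE 0.199, edgeR adjusted p = 0.706). Its sign depended on how the libraries were scaled, since it was 0.35 with scaling by library size alone.

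For the reductase at the head of the chain the estimate had the opposite sign to that of Cyp11a1, without passing the threshold. Fdxr (chromosome 11, 115268024 to 115277051, minus strand) had 140, 90.7 and 70.1 CPM in the MA-10 libraries and 168, 178 and 173 CPM in the STARKO1 libraries. All STARKO1 libraries were above all MA-10 libraries, with MA-10 replicate 1 nearest to them. The means were 100.2 ± 35.8 CPM and 173 ± 5.41 CPM (SD, n = 3 each), with a log2 fold change of 0.79 (SE 0.267, edgeR adjusted p = 0.0878). Without MA-10 replicate 1 the log2 fold change was 1.20 and the adjusted p was 1.24e-04. MA-10 replicate 1 alone differed from the STARKO1 mean by 0.31 on the log2 scale, a setting chosen after the data were seen and without a test.

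**Figure D2:**
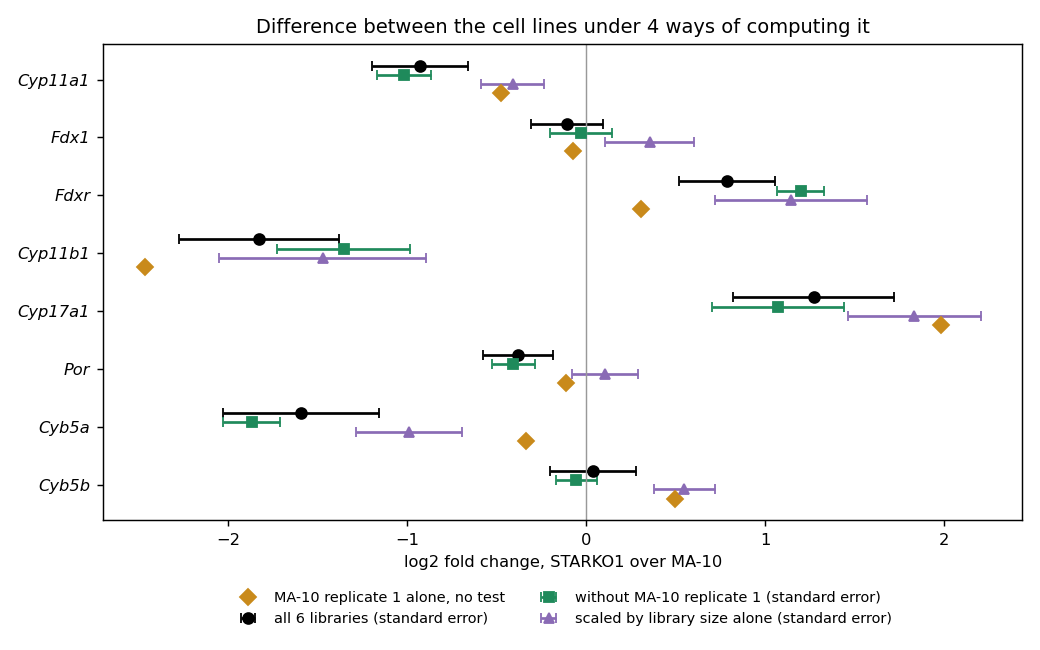
Log2 fold change of each gene, STARKO1 over MA-10, on the horizontal axis, computed in 4 ways. Circles (all 6 libraries), squares (without MA-10 replicate 1) and triangles (scaling by library size alone) carry the standard error as a bar, and diamonds set MA-10 replicate 1 alone against the STARKO1 mean without a test. Cyp17a1 and Cyp11b1 keep a difference of 1.98 and -2.46 against MA-10 replicate 1 alone, whereas the differences of Cyp11a1, Fdxr, Por and Cyb5a shrink to between -0.48 and 0.31.

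The starts of Fdxr and Fdx1 are shown because the reductase and its ferredoxin stood in a different proportion in the 2 cell lines. That ratio comes from these same data and is given below with its test, which could not pass 0.05. A link between the start regions and the levels was not tested. The RefSeq table for build GRCm38.p6 held start regions for 5 of the 8 genes, from 250 bases before to 50 bases after a transcription start. Those of Fdx1 (chr9:51963553-51963852, minus strand) and Fdxr (chr11:115276920-115277219, minus strand) have transcription starts 45 and 82 bases from the gene starts in the deposited table and read as follows, with every GGGCGG (the GC box that SP1 binds), on either strand, in capitals.
Fdx1: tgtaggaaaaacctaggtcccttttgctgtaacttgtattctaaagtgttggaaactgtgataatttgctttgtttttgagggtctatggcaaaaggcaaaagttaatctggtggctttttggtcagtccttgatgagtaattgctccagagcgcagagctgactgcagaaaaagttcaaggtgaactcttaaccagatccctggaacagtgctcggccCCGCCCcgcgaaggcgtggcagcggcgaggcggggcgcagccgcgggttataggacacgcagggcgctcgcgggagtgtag
Fdxr: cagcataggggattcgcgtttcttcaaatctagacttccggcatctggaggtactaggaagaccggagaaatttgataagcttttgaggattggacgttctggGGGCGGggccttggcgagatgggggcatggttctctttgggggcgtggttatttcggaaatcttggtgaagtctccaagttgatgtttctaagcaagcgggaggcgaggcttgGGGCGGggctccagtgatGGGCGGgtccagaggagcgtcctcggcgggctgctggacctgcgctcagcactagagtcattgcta
The Fdx1 region held the GC box 1 time, at position -31 on the opposite strand, and the Fdxr region held it 3 times, at positions -147, -34 and -16, counted from the transcription start as 1. Of the regions not shown, that of Por held the GC box at positions -217, -175, -142 and -48, and a Cyp11a1 region held it at position 6. The Por transcription start lies 19112 bases from the gene start in the deposited counts. At least 1 GC box was present in 35.7% of the 32851 start regions of the same length. CAAGGTCA, a sequence that SF-1 binds, was in neither region and in 1.56% of all regions, and TGACGTCA, the cAMP response element, was in neither and in 1.79%. The sequence AGATAA, a form of the site bound by zinc finger factors of the gonads such as that encoded by Gata4, was in neither and in 11.2% of all regions. TGATAA, another form of this site, was not searched over all regions and stands in both sequences above. The core promoter element TATAAA was in neither and in 13.6%. The letters TGACG, which begin the cAMP response element so that every full element also holds them, were in neither and in 20.8%. A Cyp11a1 region not shown held TGACG at position -50 on the opposite strand. All motifs were searched on both strands. The transcription starts of the Cyp11a1 regions in the table lie 8387 and 8541 bases from the gene start in the deposited counts and are not shown.

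Cyp11b1 (chromosome 15, 74834125 to 74841644, minus strand), the adrenal member of the mitochondrial P450s, was barely expressed. The MA-10 libraries held 144, 62 and 39 counts, or 8.25, 5.38 and 3.43 CPM, and the STARKO1 libraries 39, 15 and 40 counts, or 1.68, 0.884 and 2.25 CPM. The cell lines did not overlap, although the lowest MA-10 and the highest STARKO1 libraries were close. With means of 5.69 ± 2.42 CPM and 1.60 ± 0.685 CPM (SD, n = 3 each), its log2 estimate was -1.83 (SE 0.447, edgeR adjusted p = 0.0516), the lowest adjusted p of the 8 genes. It was -1.35 without MA-10 replicate 1, with an adjusted p of 0.0120, and MA-10 replicate 1, the highest library, was 5.52-fold above the STARKO1 mean on the log scale. Exons of Cyp11b1 overlap those of Gml2 on the opposite strand over 285 bases. How strand was used in counting is not given in the sources used here. Of the 6 adrenal cortex markers, Cyp11b1 included, 3 had a row and Cyp21a1, Cyp11b2 and Mc2r had none. Mrap and Akr1b7 were detected in all libraries, with 865 to 1680 and 419 to 782 counts.

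Turning to the endoplasmic reticulum, Cyp17a1 (chromosome 19, 46667165 to 46673173, minus strand) was scarce in both cell lines. Its counts were 37, 72 and 27 in the MA-10 libraries, or 2.12, 6.24 and 2.38 CPM, and 146, 178 and 159 in the STARKO1 libraries, or 6.28, 10.5 and 8.93 CPM. Separation of the groups was narrow, since MA-10 replicate 2 almost reached STARKO1 replicate 1. The means were 3.58 ± 2.31 CPM and 8.57 ± 2.13 CPM (SD, n = 3 each), a 2.39-fold difference of means. The log2 fold change was 1.27 (SE 0.451, edgeR adjusted p = 0.0949). It was 1.07 without MA-10 replicate 1 (adjusted p = 0.0317) and 1.93 without MA-10 replicate 2 (adjusted p = 0.0339). For Cyp17a1, MA-10 replicate 1 was the MA-10 library farthest from STARKO1, whereas for Cyp11a1 and Fdxr it was the nearest. It had the lowest Cyp17a1 level, 3.96-fold below the STARKO1 mean on the log scale.

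The common microsomal reductase had the smallest difference among the 6 genes whose groups did not overlap. Por (chromosome 5, 135670033 to 135735327, plus strand) had 225, 322 and 267 CPM in the MA-10 libraries and 210, 199 and 218 CPM in the STARKO1 libraries, with a narrow gap between the groups. The means were 271.5 ± 48.5 CPM and 209 ± 9.33 CPM (SD, n = 3 each). The log2 estimate was -0.38 (SE 0.194, edgeR adjusted p = 0.191), and it turned to 0.11 with scaling by library size alone. Without MA-10 replicate 1 the log2 fold change was -0.41, with an adjusted p of 0.0158.

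Of the cytochromes b5, Cyb5a had the larger estimate. Cyb5a (chromosome 18, 84838704 to 84879872, plus strand) had 36.2, 134 and 89.7 CPM in the MA-10 libraries, a 3.71-fold range, and 29.0, 27.6 and 29.6 CPM in the STARKO1 libraries. MA-10 replicate 1 stood much nearer to the STARKO1 libraries than to the other MA-10 libraries. The means were 86.8 ± 49.1 CPM and 28.7 ± 0.986 CPM (SD, n = 3 each), and the log2 estimate was -1.59 (SE 0.436, edgeR adjusted p = 0.0623). It was -1.87 without MA-10 replicate 1 (adjusted p = 3.96e-05), and only -0.33 when MA-10 replicate 1 alone was set against STARKO1. Cyb5b (chromosome 8, 107150640 to 107187472, plus strand) had 358, 596 and 522 CPM in the MA-10 libraries and 511, 496 and 511 CPM in the STARKO1 libraries, which lay inside the MA-10 range. Its means were 492 ± 122 CPM and 506 ± 8.43 CPM (SD, n = 3 each), with a log2 fold change of 0.04 (SE 0.239, edgeR adjusted p = 0.913).

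Levels of different genes were compared per kilobase of exon, with all annotated exons of a gene merged over its transcripts. This length can exceed that of the transcript expressed, so the order of genes below depends on the annotation. In MA-10 cells the order of mean CPM per kb was Cyp11a1 (174 ± 53.9), Cyb5b (112 ± 27.9), Por (67.5 ± 12.1), Fdxr (35.7 ± 12.8), Cyb5a (27.9 ± 15.8), Fdx1 (24.2 ± 5.63), Cyp11b1 (1.80 ± 0.765) and Cyp17a1 (1.29 ± 0.835), all SD with n = 3. Among neighbours, the ranges of mean ± SD overlapped for Cyp11a1 and Cyb5b, for Fdxr, Cyb5a and Fdx1, and for Cyp11b1 and Cyp17a1. Cyp11a1 exceeded 97.0% of all tested genes on this scale and Cyp17a1 exceeded 19.3%. In STARKO1 cells the order was Cyb5b (116 ± 1.93), Cyp11a1 (91.3 ± 2.07), Fdxr (61.7 ± 1.93), Por (51.9 ± 2.32), Fdx1 (22.5 ± 0.179), Cyb5a (9.26 ± 0.318), Cyp17a1 (3.09 ± 0.769) and Cyp11b1 (0.507 ± 0.216), and no neighbours in it overlapped in this way. Between the orders, Cyb5b and Cyp11a1 exchanged places, as did Fdxr with Por, Fdx1 with Cyb5a, and Cyp17a1 with Cyp11b1. With other exon lengths these exchanges could differ.

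**Figure D3:**
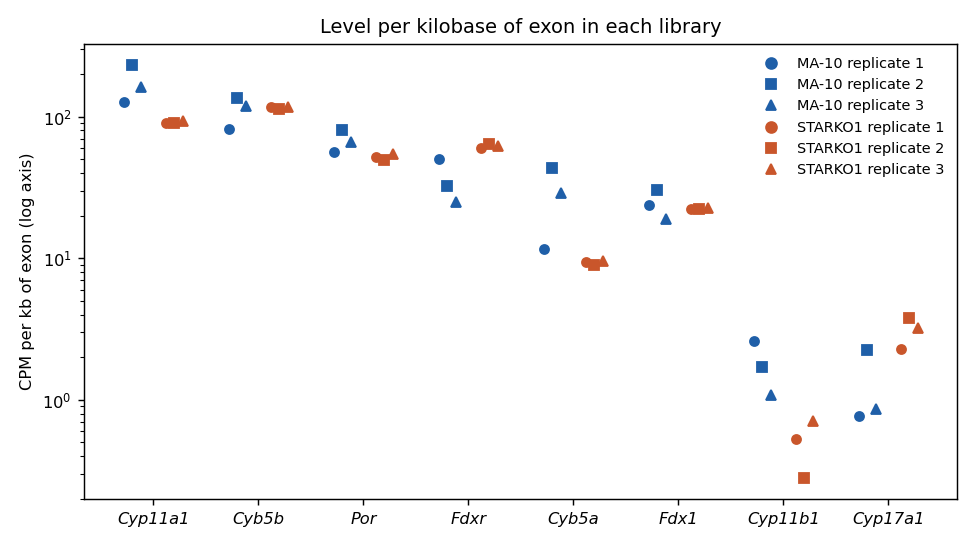
Level of each gene in each library in CPM per kb of exon, on a log axis, with genes in the order of their MA-10 means and symbols as replicates. Cyp11b1 (1.80 and 0.507) and Cyp17a1 (1.29 and 3.09) have the lowest means in MA-10 and STARKO1 cells.

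The ratio of 2 genes within a library does not depend on how the library is scaled, and was examined for 8 pairs, several of which share a gene. These are ratios of counts, not of molecules, because the genes differ in length. They were not adjusted for GC content, which was 60.0% for Fdxr and 44.4% for Fdx1 in the longest annotated transcript. With GC content offsets the log2 fold change was 0.57 for Fdxr and 0.0663 for Fdx1, against 0.79 and -0.11 without them. For Fdx1 and Cyp11a1 there were 0.120, 0.0836 and 0.0753 counts of Fdx1 for each count of Cyp11a1 in the MA-10 libraries, and 0.161, 0.160 and 0.156 in the STARKO1 libraries. Ferredoxin transcripts were thus more numerous relative to the P450 in every STARKO1 library, by 0.80 on the log2 scale. For Fdxr and Cyp11a1 the ratio was 0.229, 0.0811 and 0.0902 in the MA-10 libraries and 0.388, 0.411 and 0.384 in the STARKO1 libraries, 3.32-fold higher in the geometric mean. Fdxr had 1.90, 0.971 and 1.20 counts for each count of Fdx1 in MA-10 cells and 2.42, 2.57 and 2.46 in STARKO1 cells, 1.90-fold higher in the geometric mean. The STARKO1 libraries lay close together in these ratios, with an SD of 0.0211 to 0.0531 on the log2 scale against 0.355 to 0.824 in MA-10 cells.

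In the microsomal pairs the proportions also differed. Por had 106, 51.6 and 112 counts for each count of Cyp17a1 in the MA-10 libraries and 33.4, 19.0 and 24.4 in the STARKO1 libraries, a log2 difference of -1.76. Cyp17a1 relative to Cyp11a1, the last against the first P450 on the way to androgens, was 4.85-fold higher in STARKO1 cells in the geometric mean, and each MA-10 library, replicate 1 included, held 179 or more counts of Cyp11a1 for each count of Cyp17a1 against 41.4 to 68.8 in STARKO1 cells. The ratio of Cyb5a to Por was 0.161, 0.417 and 0.336 in the MA-10 libraries and 0.139, 0.139 and 0.136 in the STARKO1 libraries. Cyb5a to Cyb5b gave 0.101, 0.225 and 0.172 against 0.0569, 0.0558 and 0.0579. Cyb5b to Por gave 1.59, 1.85 and 1.95 against 2.44, 2.49 and 2.35. All 8 ratios separated the cell lines completely, as did 43.6% of the ratios of all 71263891 pairs of tested genes, and pairs that share a gene are not independent. The two-sided exact permutation test gave p = 0.1 for each, also 0.1 after Benjamini-Hochberg adjustment over the 8 ratios, and 0.1 is the smallest p that 3 libraries against 3 allow, so that none could pass 0.05.

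**Figure D4:**
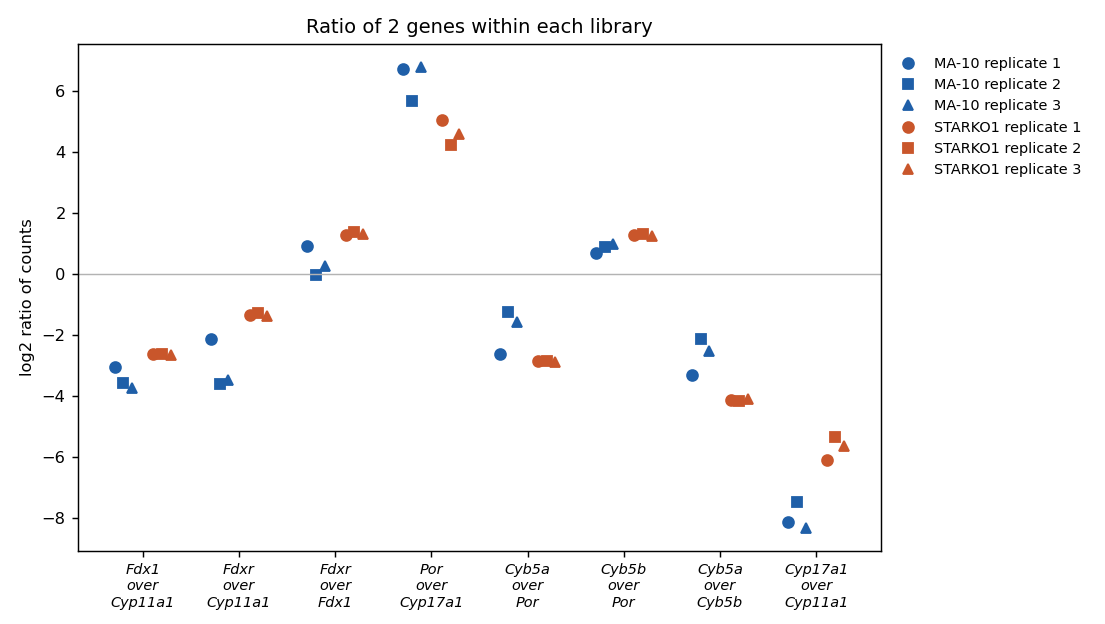
Log2 ratio of the counts of 2 genes within each library, for 8 pairs, with blue for MA-10 and orange for STARKO1 libraries and symbols as replicates. No pair has overlapping groups (43.6% of all pairs of tested genes have none), and MA-10 replicate 1 is the MA-10 library nearest to STARKO1 for the 3 ratios among Cyp11a1, Fdx1 and Fdxr, and for the 2 ratios with Cyb5a as numerator.

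Around these genes, 125 further genes in 9 lists were looked up, of which 101 had a row and 98 were tested. Of these 98, 8 (8.16%) passed the threshold, 3 higher and 5 lower, a share near the 9.04% of all genes, and their median log2 fold change was -0.10. Star is among the 5. Other mitochondrial P450s were represented in the table only by Cyp27a1, a sterol hydroxylase that was too low to test. Among microsomal P450s, which all depend on POR, 1 of 8 rose and none fell. This was Cyp51, lanosterol demethylase of the cholesterol pathway, with 190, 124 and 163 CPM in MA-10 and 323, 290 and 341 CPM in STARKO1 cells and a log2 fold change of 1.00 (SE 0.213, edgeR adjusted p = 0.0385). Cyp51 passed in 1 of the 6 fits that left out 1 library. The abundant Cyp2s1 and Cyp20a1 had adjusted p values of 0.170 and 0.0876.

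Of the microsomal electron carriers, 1 of 12 fell and none rose. Cyb5r1, a member of the cytochrome b5 reductase family, had 37.5, 42.9 and 52.0 CPM in MA-10 and 20.2, 23.6 and 25.9 CPM in STARKO1 cells (log2 fold change -0.92, SE 0.189, edgeR adjusted p = 0.0347, passed in 1 of 6 leave-one-out fits). Sqle, a squalene epoxidase that also takes electrons from POR, had 397, 207 and 242 CPM against 628, 611 and 627 CPM, with an adjusted p of 0.0521. Pgrmc1, a heme-binding partner of several P450s, had a log2 fold change of -0.09 and an adjusted p of 0.735.

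The iron-sulfur cluster genes build the cofactor that FDX1 carries and use electrons from mitochondrial ferredoxins. None of the 17 tested passed in edgeR, while 9 were lower and 1 higher at an unadjusted p under 0.05 (22.7% and 15.0% of all genes). DESeq2 called 8 lower and 1 higher, and it called 28.5% of all genes, 2083 lower and 1312 higher. The cell lines did not overlap in 7 of the 17, against 42.5% of all genes. The median log2 fold change of the 17 was -0.83, against -0.05 for all genes. It was -0.69 with offsets for gene length and -0.31 with scaling by library size alone, where the median of all genes was 0.38. Without MA-10 replicate 1, 11 were lower and 2 higher, against 31.7% and 34.0% of all genes. The most abundant were Hspa9, the mitochondrial chaperone of the pathway, with 1428, 2484 and 2992 CPM in MA-10 and 1272, 1320 and 1292 CPM in STARKO1 cells, and Bola3, a small protein of cluster delivery, with 59.2, 1075 and 521 CPM against 72.5, 79.3 and 78.4 CPM. Their adjusted p values were 0.112 and 0.0762. In Bola3 the groups overlapped, because MA-10 replicate 1 lay below all STARKO1 libraries and far below the other MA-10 libraries.

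P450s also need heme, and of the 13 heme synthesis genes tested 1 rose and 1 fell. Slc25a39, a mitochondrial carrier for glutathione, fell from 286, 544 and 404 CPM to 151, 157 and 161 CPM (log2 fold change -1.39, SE 0.263, edgeR adjusted p = 0.0280, passed in 2 of 6 leave-one-out fits). Uros, uroporphyrinogen synthase, rose from 3.04, 1.65 and 1.59 CPM to 4.95, 5.13 and 5.73 CPM (log2 fold change 1.31, standard error 0.307, adjusted p = 0.0474, passed in 1 of 6). Alas1, the rate-limiting enzyme of heme synthesis, had 119, 98.8 and 109.9 CPM in MA-10 and 116, 121 and 120.3 CPM in STARKO1 cells, with an adjusted p of 0.552, and Cpox had 0.567. No gene passed among the 8 tested for protein lipoylation, a process in which FDX1 is also needed, or among the 12 for NADPH supply in edgeR. In the lipoylation list 1 gene had an unadjusted p under 0.05 and DESeq2 called 0. In the NADPH list 2 were higher and 1 lower at an unadjusted p under 0.05 (15.0% and 22.7% of all genes). DESeq2 called 1 of them in each direction, against 28.5% of all genes in both directions together. Idh1 and Me1, the most abundant NADPH genes, had log2 fold changes of -0.15 and 0.03, and Dld and Dlst, the most abundant lipoylation genes, had -0.19 and -0.15.

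**Figure D5:**
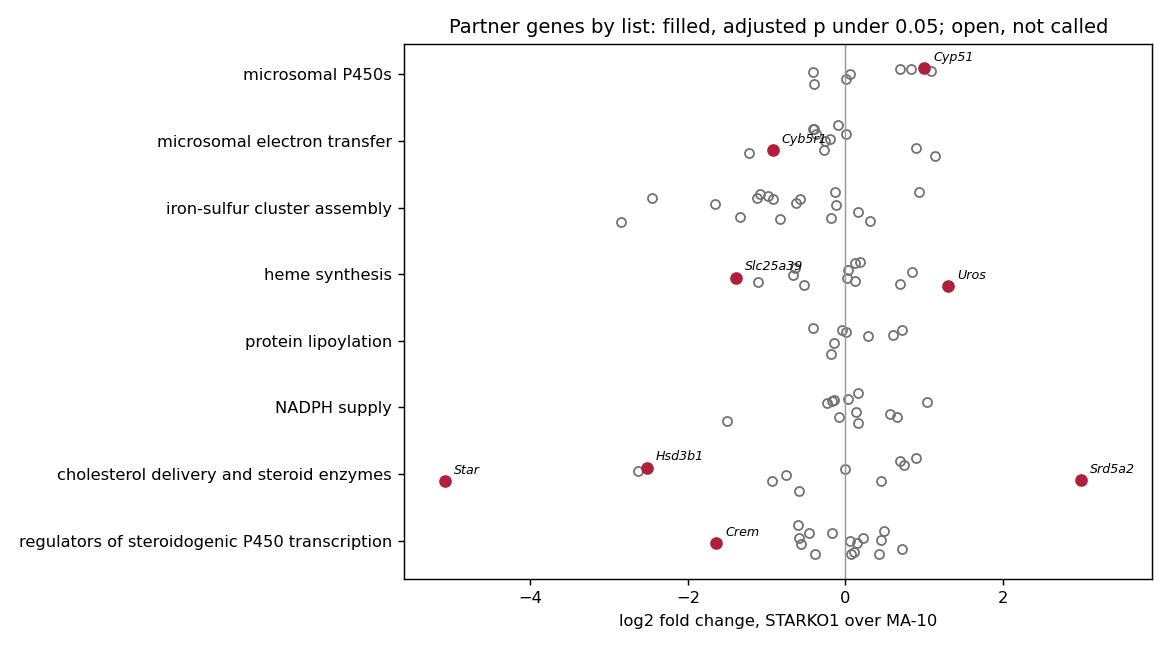
Log2 fold change, STARKO1 over MA-10, of the 98 tested partner genes, 1 point a gene, arranged by list. Filled points passed an adjusted p under 0.05 and are named (8 genes), open points did not pass, and most iron-sulfur cluster genes lie to the left of 0 without passing.

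Among genes of cholesterol delivery and the other steroid enzymes, 1 of 12 tested rose and 2 fell, against 4.3% and 4.74% of all genes. At an unadjusted p under 0.05 in edgeR, 4 were higher and 5 lower (15.0% and 22.7% of all genes). DESeq2 called 4 higher and 5 lower, against 28.5% of all genes in both directions together. The cell lines did not overlap in 9 of the 12, against 42.5% of all genes. The list includes Star, the targeted gene, and was chosen with earlier results of these data known. Besides Star, Hsd3b1, which converts the pregnenolone made by CYP11A1 into progesterone, fell from 27.8, 37.2 and 24.3 CPM to 5.12, 5.72 and 4.72 CPM (log2 fold change -2.52, SE 0.219, edgeR adjusted p = 0.00268), and it passed in all 6 leave-one-out fits. Hsd3b6, a second enzyme for this step and the more abundant, had 427, 710 and 583 CPM against 288, 320 and 297 CPM, with an adjusted p of 0.0568. These genes belong to a family of close copies, so their counts are uncertain where reads were divided. Srd5a2, a steroid reductase, had only 1, 6 and 2 counts in MA-10 and 37, 41 and 30 in STARKO1 cells (log2 fold change 2.99, adjusted p = 0.0357, passed in 2 of 6). Tspo, the mitochondrial translocator protein, had a log2 fold change of 0.00 and an adjusted p of 0.995. Among 16 regulators of steroidogenic P450 transcription 1 fell and none rose. This was Crem, a cAMP-responsive factor, which had 3.55, 5.64 and 7.31 CPM in MA-10 and 2.28, 1.59 and 1.35 CPM in STARKO1 cells (log2 fold change -1.64, standard error 0.355, adjusted p = 0.0399, passed in 1 of 6). The abundant Prkar1a and Nr5a1 had adjusted p values of 0.259 and 0.189.

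Genes with a pattern over the 6 libraries like that of a member were found by the root mean square difference of centred log2 CPM among the 8538 well expressed genes. Nearest to Cyp11a1 were Rpl13a, Csnk1d and Vapa, at 0.0343, 0.0487 and 0.0551 log2 units. Rpl13a is a ribosomal protein gene. Such genes together took 4.42%, 8.42% and 7.56% of the counts in the MA-10 libraries and 4.06% to 4.23% in the STARKO1 libraries. A link between that share and the Cyp11a1 level was not tested. Fdx1 was nearest to Kmt5c, Sdha and Cbx8 (0.0463 to 0.0587), and Fdxr to Stk11ip, Wsb2 and Gnaq (0.0350 to 0.0474). For Por the nearest were Tmem41b, Fbxw11 and Cyb5r3 (0.0325 to 0.0358), the last of them the main cytochrome b5 reductase. The genes share their libraries and their scaling, and the measure is a description.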

How the data were processed

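Total RNA was extracted from untreated MA-10 and STARKO1 cells and sequenced from stranded total RNA libraries, 3 for each cell line. The authors deposited estimated counts per gene and library, not scaled for library size, with replicates kept apart. The submitters' processing notes name the STAR aligner 2.6.1d, Partek and build mm10, without roles, and the annotation and the use of strand are not given in the sources used here. In the deposited table every gene had at least 10 counts in total, and 54.2% of genes were not whole (by over 1e-06) in some library. Of the 14774 genes, 14677 were matched by symbol and chromosome to GENCODE vM21 (GRCm38), 14634 of them with the same start, which gave exon lengths.

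Estimated counts were rounded, and edgeR 4.0.16 was run in R 4.3.3 (filterByExpr, TMM, glmQLFit and glmQLFTest), and p values were adjusted over all genes. The standard error is the log2 fold change over the square root of F. CPM use the TMM-scaled library size. The common biological coefficient of variation was 0.291. Other tools were DESeq2 1.42.0, limma 3.58.1, matplotlib 3.10.9, scipy 1.17.1, numpy 2.4.6, pandas 2.3.3 and Python 3.11.15. Ratios were taken from counts plus 0.5. On simulated counts of 11953 tested genes, 99% of the 4-fold and 23% of the 2-fold changes were recovered and 4.69% of calls were false. The simulation gave every gene in every library the same coefficient of variation, 0.29. In the real data the spread was wider in MA-10 than in STARKO1 cells and MA-10 replicate 1 resembled STARKO1, so these rates need not hold there. Genes are named by rule: the 8 members, Star, up to 4 genes that passed in each list by lowest p, up to 2 abundant genes that did not, and the 3 genes most like each of 4 members. The markers and Gm17322 were named besides. Members and lists were chosen with earlier results of these data known. The alternatives were DESeq2, other scalings and filters, removal of the 50 most abundant genes, gene length and GC content offsets, a replicate block and leaving out each library, and MA-10 replicate 1 alone was added after the data were seen. Replicates of a cell line differed by more than sampling noise (chi-square over degrees of freedom at least 5.05).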

Additional observations from a re-analysis of the deposited data

How the results depend on the processing

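The number of genes that passed, 1079 with all libraries and TMM, was 3395 with DESeq2, 330 with scaling by library size alone, 695 with at least 10 counts in every library, 234 with the replicate block and between 89 and 7990 when 1 library was left out. Of these calls 47.5% were higher in STARKO1 cells, against 63.6% with scaling by library size alone. The 8 genes of the chain gave 5 calls with DESeq2, between 0 and 6 when 1 library was left out, and 0 under each of the other alternatives. The lists gave 35 calls with DESeq2, 4 with scaling by library size alone, 2 with the replicate block and between 2 and 64 when 1 library was left out. DESeq2 called Cyp11a1 (-0.91), Fdxr (0.80), Cyp11b1 (-1.81), Cyp17a1 (1.28) and Cyb5a (-1.58). Fdx1 became positive when scaled by library size alone (0.35) or by the upper quartile (0.0447), with GC content offsets (0.0663) and without MA-10 replicate 2 (0.0777). Por did so with the library size scaling (0.11), and Cyb5b turned negative without MA-10 replicate 1 (-0.0543). GC content offsets moved Por to -0.64 and Fdxr to 0.57. When 1 library was left out the log2 fold change was between -1.02 and -0.66 for Cyp11a1, -0.26 and 0.08 for Fdx1, 0.58 and 1.20 for Fdxr, -2.13 and -1.35 for Cyp11b1, 1.05 and 1.93 for Cyp17a1, -0.41 and -0.24 for Por, -1.87 and -1.13 for Cyb5a, and -0.05 and 0.20 for Cyb5b. The 8 ratios kept their direction with other pseudocounts and without any single library, and were not computed with GC content offsets. The cause of these changes was not tested. The labels do not say whether same-numbered libraries were paired. Their deviations from the group means correlated at -0.0346, 0.0907 and -0.0162 across genes, and not every library correlated best with its own number. With so few libraries these values cannot show whether same-numbered libraries shared a culture or a preparation. In the fit with a replicate block, the 8 genes had adjusted p values of 0.0855 or more, and Star and Hsd3b1 were the 2 list genes that passed. Low counts limit Cyp11b1 and Cyp17a1, with 15 to 144 and 27 to 178 counts per library.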
